A study of Rattus norvegicus with 9 samples.

Results

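MiR-138 is a brain-enriched microRNA (miRNA) whose mature products were followed here through 9 small RNA libraries from rat hippocampus. The products were taken from the table by name, as every entry that starts with rno-miR-138-. That gave 3 of the 633 miRNAs listed: rno-miR-138-5p, which both precursors yield, and rno-miR-138-1-3p and rno-miR-138-2-3p, of which each comes from 1 precursor. MiR-138 was chosen by its measured values in these same comparisons, where miR-138-5p lay higher in the MK-801 libraries than in the vehicle libraries and lower again in the clozapine libraries. Its levels and differences are therefore given as a description, without a test of their own, and those of the 3p products likewise.

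All rats were Sprague-Dawley and 5 weeks old when dosing began. The age label of the samples, postnatal day 21, is younger than that and so cannot be the age at which the tissue was taken after the injections. The vehicle group (VEH) received saline injections for 14 days and then for another 7 days. Rats of the MK-801 group were given MK-801 (dizocilpine), which blocks the channel of NMDA receptors and serves in rodents as a pharmacological model of schizophrenia. The dose was 0.2 mg/kg daily for 14 days, and saline was injected in the next 7 days. In the MK-801+CLO group the 14 days of MK-801 were the same, and the atypical antipsychotic clozapine (CLO) was given in the last 7 days at 10 mg/kg. No group received clozapine without MK-801, so the drug's own effect cannot be told apart from its effect after MK-801. The groups held 10 rats each and are represented by 3 libraries each. The labels do not say that the libraries came from separate rats, so the spread between libraries may be technical.

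In neurons miR-138 is known as a miRNA of dendrites that limits the size of dendritic spines, the small protrusions that carry most excitatory synapses. The best known target behind this is the mRNA of Lypla1 (acyl protein thioesterase 1), an enzyme that removes palmitate from membrane proteins. A miRNA is cut from a hairpin precursor whose arms give a 5p and a 3p product. Usually 1 of them is retained in the silencing complex, while its partner is degraded and seen at low levels. The retained strand recognises targets mainly through its seed, bases 2 to 8.

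The mature sequences are shown because the shared 5p product and the separate 3p products decide what can be read from the counts. All 3 names matched RefSeq (build GRCr8), and the sequences in the deposited table were the same apart from T in place of U. Capitals mark the seed.
rno-miR-138-5p: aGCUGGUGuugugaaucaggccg
rno-miR-138-1-3p: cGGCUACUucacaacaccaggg
rno-miR-138-2-3p: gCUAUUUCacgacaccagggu

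The precursors are shown to place these products, with both arms in capitals.
Mir138-1: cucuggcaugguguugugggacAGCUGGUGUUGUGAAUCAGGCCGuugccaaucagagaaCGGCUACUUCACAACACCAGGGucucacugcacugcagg
Mir138-2: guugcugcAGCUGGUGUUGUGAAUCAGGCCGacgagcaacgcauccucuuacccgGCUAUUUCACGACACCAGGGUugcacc

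Mir138-1 is a 99-base hairpin at chr8:131178434-131178532 on the plus strand of GRCr8, and Mir138-2 is an 82-base hairpin at chr19:10680133-10680214 on the minus strand. In the RefSeq annotation Mir138-1 lies within the span of the long noncoding RNA genes LOC103690480, on the same strand, and LOC102550701, on the opposite strand. Mir138-2 lies within the span of Slc12a3, the thiazide-sensitive sodium chloride cotransporter gene, on the same strand. Whether these genes are transcribed together with the precursors was not tested. Between the arms, Mir138-1 has 15 bases and Mir138-2 has 24.

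The 5p sequence is the same in both hairpins, so its counts cannot be divided between the genes, whereas the 3p products can be told apart. Laid over each other without gaps, the 3p sequences overlap by 20 bases and agree at 18. With positions counted from the 5′ end of rno-miR-138-1-3p, they differ by C7U and A13G, and rno-miR-138-2-3p starts 2 bases further in. That offset and C7U, which lies within both seeds, give them different seeds. Reads trimmed or mismatched at these positions could have been assigned to either, so the 2 levels are uncertain to that extent. No other miRNA among the 633 in the table shares the seed of any of the 3 products. One, miR-133a-5p, has bases 2 to 7 in common with miR-138-5p, at a mean of only 0.041 CPM.

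Levels are counts scaled to a common library total of all miRNA counts (CPM), with no length term. Library totals ran from 10665718 to 18284905 counts. Several neuron-enriched miRNAs were abundant, as the tissue label would have it, with miR-124-3p at 3159 ± 315 CPM in VEH (SD, n = 3). A list of 13 neuron-enriched miRNAs summed to between 105002 and 128768 CPM in every library. Most of that sum was miR-9a-5p (87783 ± 663 CPM in VEH), while miR-129-1-3p of the same list was at 7.74 CPM in VEH. The liver miRNA miR-122-5p was at 0.24 ± 0.069 CPM and the muscle miRNA miR-1-3p at 0.33 ± 0.22 CPM in VEH.

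MiR-138-5p was the tenth most abundant miRNA of the table, with a mean of 25618 CPM over the 9 libraries, after miR-27b-3p (26776 CPM) and before let-7c-5p (19286 CPM). The ranges of those neighbours over the 9 libraries overlap with its own. MiR-138-5p ranged from 20010 to 37470 CPM, miR-27b-3p from 23328 to 30424 CPM and let-7c-5p from 14577 to 23481 CPM. In VEH replicates 1, 2 and 3, miR-138-5p stood at 21808, 22640 and 21386 CPM. These 3 libraries lie close together, with a group mean of 21944 ± 638 CPM (SD, n = 3).

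In the MK-801 replicates miR-138-5p stood at 37470, 23716 and 35318 CPM, a group mean of 32168 ± 7398 CPM (SD, n = 3). Replicates 1 and 3 were high, and replicate 2 was only slightly above the highest VEH library. In the MK-801+CLO replicates it stood at 20010, 22995 and 25216 CPM, a mean of 22741 ± 2612 CPM (SD, n = 3). These libraries span the whole VEH range and reach past MK-801 replicate 2, but stay below MK-801 replicates 1 and 3. By rank within a library, miR-138-5p was seventh in MK-801 replicates 1 and 3 and between ninth and thirteenth in the other libraries.

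**Figure D1:**
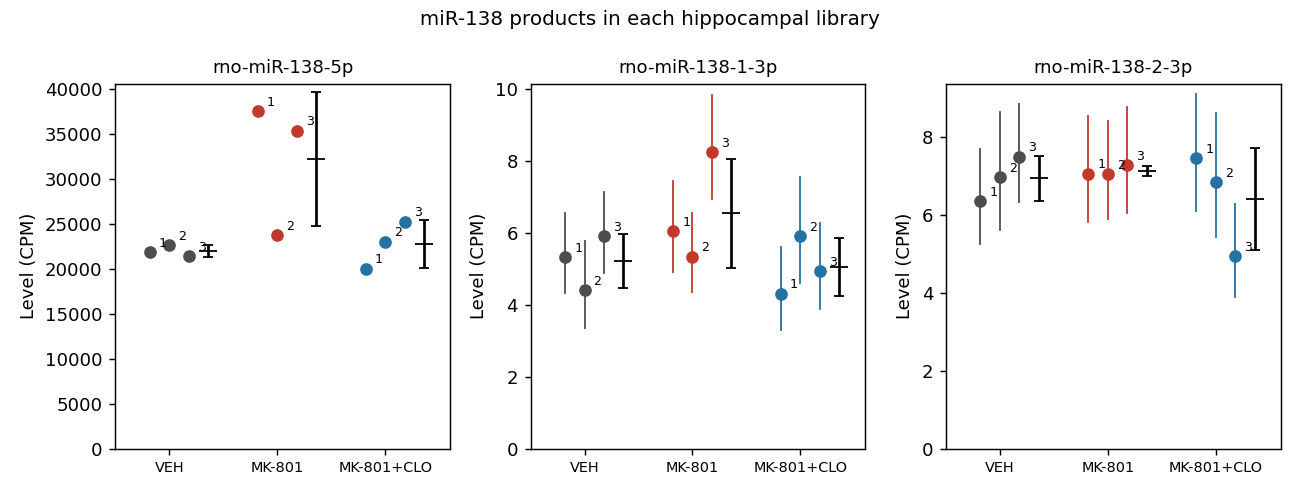
Level of each miR-138 product in CPM (linear axes from 0) in the 9 libraries, by group. Each point is 1 library with its replicate number, thin bars are 95% Wilson intervals for counting error, and black bars are the group mean ± SD (n = 3). For miR-138-5p, MK-801 replicates 1 and 3 stand at 37470 and 35318 CPM, above all other libraries, while the 3p products lie between 4.31 and 8.26 CPM with wide counting intervals.

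The order of the group means was MK-801, then MK-801+CLO, then VEH. MK-801+CLO and VEH did not differ beyond their spread, and MK-801 stood apart from VEH in all 3 libraries but from MK-801+CLO in only 2. With 245263 to 557293 counts of miR-138-5p per library, counting error is 0.14% to 0.19% of the level, averaged within a group, far below the spread between MK-801 or MK-801+CLO libraries. No miRNA passed an adjusted p of 0.05 in edgeR's quasi-likelihood test in any of the 3 comparisons (0 of 469, 0.0%), while an unadjusted p under 0.05 was found for 24 miRNAs when MK-801 was set against VEH, for 39 when clozapine-treated and MK-801 libraries were compared, and for 70 between MK-801+CLO and VEH. DESeq2 called 1, 2 and 11 miRNAs in these comparisons, none of them a miR-138 product, and limma voom called 0.

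Against VEH, the fitted log2 fold change of miR-138-5p in MK-801 was 0.58 ± 0.18 (SE), which is 1.50-fold. Of the 3 products, miR-138-5p alone had all MK-801 libraries above all VEH libraries. Such a separation was seen upward for 5.97% of the 469 tested miRNAs, and in either direction for 13.9%. Since these contrasts chose miR-138, nothing is read from that. The value was 0.45 without MK-801 replicate 1, 0.50 without replicate 3 and 0.79 without replicate 2.

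Between MK-801+CLO and MK-801, miR-138-5p had a log2 fold change of -0.47 ± 0.18 (SE), which is 0.72-fold. None of the 3 products had separate library ranges here, against 11.5% of tested miRNAs. This comparison uses the same MK-801 libraries as the one against VEH, so a high MK-801 value enters both with opposite signs. The value ran from -0.67 without MK-801 replicate 2 to -0.33 without MK-801 replicate 1. Against VEH, MK-801+CLO had a log2 fold change of 0.12 ± 0.18 (SE) for miR-138-5p, and again none of the 3 products had separate ranges, against 17.5% of tested miRNAs. Single clozapine libraries set that last value, which was 0.00 without MK-801+CLO replicate 3 (0.002 before rounding) and 0.22 without replicate 1.

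**Figure D2:**
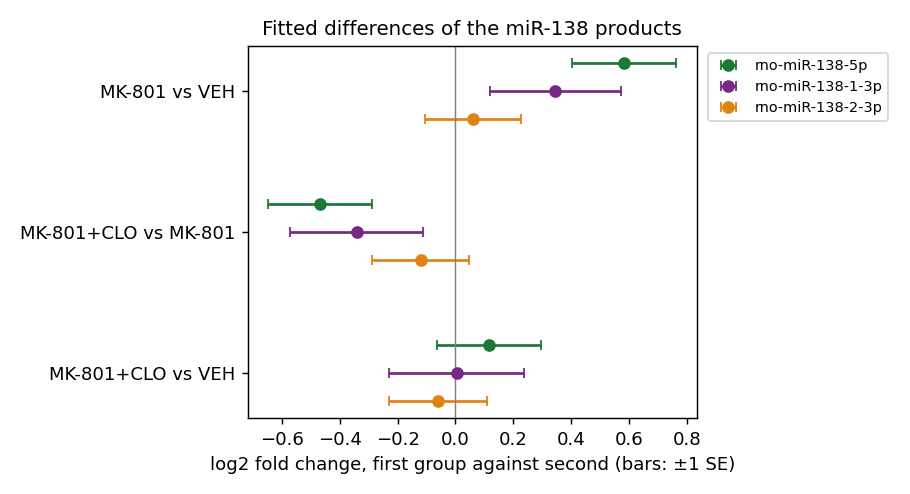
Fitted log2 fold changes of the 3 miR-138 products in each comparison (x axis, first group against second), with bars of ±1 SE from edgeR fits to all 9 libraries. MiR-138-5p lies at 0.58 for MK-801 against VEH and at -0.47 between MK-801+CLO and MK-801, while miR-138-2-3p lies within 1 SE of 0 in all 3 comparisons.

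Among the 70 miRNAs with a mean of at least 1000 CPM, miR-138-5p had the highest log2 fold change of MK-801 over VEH and the second lowest of MK-801+CLO over MK-801. Over all 469 tested miRNAs, most of them rarer, it was 11th from the top in the former and 33rd from the bottom in the latter. These ranks describe the contrasts on which it was chosen. For MK-801+CLO against VEH it ranked 30th of the 70 abundant miRNAs. As a share of all miRNA counts, miR-138-5p took 2.18%, 2.26% and 2.14% in VEH replicates 1, 2 and 3. In the same order the shares were 3.75%, 2.37% and 3.53% for MK-801, whereas MK-801+CLO had 2.00%, 2.30% and 2.52%.

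**Figure D3:**
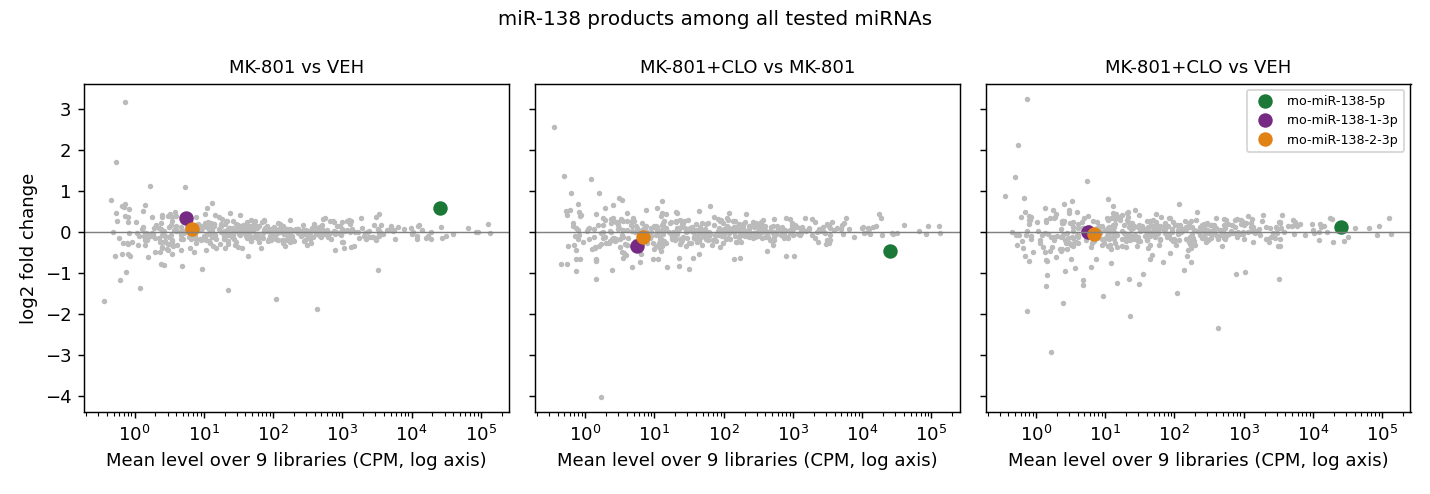
Mean level over the 9 libraries (x axis, CPM, log axis) against the fitted log2 fold change (y axis) for the 469 tested miRNAs (grey) in each comparison, with the miR-138 products in colour. MiR-138-5p, at a mean of 25618 CPM, lies above the other abundant miRNAs for MK-801 against VEH and near their lower edge when MK-801+CLO is set against MK-801.

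Its libraries lay close together in VEH and far apart in MK-801. Among the same 70 abundant miRNAs, the SD of log2(CPM + 1) of miR-138-5p over the VEH libraries was 0.04, the 64th widest, against a median of 0.11. Over the MK-801 libraries it was 0.36, the 4th widest, against a median of 0.09. Over the MK-801+CLO libraries it was 0.17, the 33rd widest, against a median of 0.16. These are SDs of 3 libraries each, and the difference between groups was not tested.

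The 3p products were rare, and their order between groups rests on few counts. MiR-138-1-3p, the product specific to Mir138-1, stood at 5.33, 4.42 and 5.91 CPM in the VEH replicates. Values for MK-801 were 6.05, 5.34 and 8.26 CPM, and those for MK-801+CLO were 4.31, 5.91 and 4.94 CPM. MK-801 replicate 3 was the highest library, with 126 counts, and the groups overlap. Group means (± SD, n = 3 each) were 5.22 ± 0.75 CPM for VEH, 6.55 ± 1.52 CPM for MK-801 and 5.05 ± 0.80 CPM for MK-801+CLO.

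The fitted log2 fold change of miR-138-1-3p was 0.35 ± 0.23 (SE) between MK-801 and VEH and -0.34 ± 0.23 (SE) between MK-801+CLO and MK-801. Both rest largely on MK-801 replicate 3, without which they were 0.12 and -0.11. The remaining difference, MK-801+CLO against VEH, was 0.00 ± 0.23 (0.0042 before rounding), and its sign held under only 9 of 15 alternatives, turning for example with upper-quartile factors (-0.01) and with library totals (-0.06).

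MiR-138-2-3p, the product specific to Mir138-2, stood at 6.35, 6.97 and 7.49 CPM in the VEH replicates. Values for MK-801 were 7.06, 7.05 and 7.27 CPM, and those for MK-801+CLO were 7.45, 6.84 and 4.94 CPM. MK-801+CLO replicate 3 was the lowest library, with 67 counts, and the other 8 libraries lie within 6.35 to 7.49 CPM. Its fitted log2 fold changes were 0.06 ± 0.17 (SE) between MK-801 and VEH, -0.12 ± 0.17 (SE) between MK-801+CLO and MK-801, and -0.06 ± 0.17 (SE) between MK-801+CLO and VEH. Without VEH replicate 1 the first was -0.02, and without MK-801+CLO replicate 3 the last 2 were 0.03 and 0.06.

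Counting error is part of the spread of the 3p products, and the observed spreads lie both below and above it. Each has 52 to 137 counts per library, so counting alone gives a coefficient of variation of 9.46% to 12.8% within a group. The observed coefficients of variation were 14.4%, 23.2% and 15.9% for miR-138-1-3p and 8.24%, 1.80% and 20.4% for miR-138-2-3p in VEH, MK-801 and MK-801+CLO. Whether the 5p and 3p differences differ from each other was not tested.

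The 5p product outnumbered the summed 3p products by 3 orders of magnitude, and made up 99.94% to 99.97% of all miR-138 counts in every library. In VEH there were 1867, 1988 and 1596 counts of 5p for each 3p count in replicates 1, 2 and 3. The same ratio was 2858, 1915 and 2274 for MK-801, whereas MK-801+CLO had 1701, 1803 and 2551. The highest ratios came from MK-801 replicate 1 and MK-801+CLO replicate 3, and the groups overlap. The mean log2 ratio was 10.82 ± 0.16 in VEH, 11.18 ± 0.29 in MK-801 and 10.95 ± 0.32 in MK-801+CLO (SD, n = 3 each), while counting gives each library's ratio an error of 6.39% to 8.64%.

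Arms were compared by mean CPM over the 162 families with both arms among the tested miRNAs, with products that carry precursor numbers summed within an arm and 2 families left out because 1 entry merges their names. The median family differed by 18.4-fold between its arms. MiR-138 was the ninth most uneven, after miR-26a, miR-103, let-7f, miR-92b, miR-146b, miR-410, miR-98 and miR-541. Families with an arm too rare to be tested are not in this order. Adapter ligation favours some ends over others in small RNA libraries, so ratios between different miRNAs carry that bias, whereas it is shared by the libraries when 1 ratio is compared across them.

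Both precursors gave a sizeable part of the 3p counts, with miR-138-2-3p the larger part in most libraries. MiR-138-1-3p made up 45.6%, 38.8% and 44.1% of 3p counts in VEH replicates 1, 2 and 3. Its shares were 46.2%, 43.1% and 53.2% for MK-801, whereas MK-801+CLO had 36.7%, 46.3% and 50.0%. The lowest and highest of these, MK-801+CLO replicate 1 and MK-801 replicate 3, have 95% Wilson intervals of 29.4% to 44.6% and 46.8% to 59.4%, and the groups overlap. The group means were 42.8% ± 3.58, 47.5% ± 5.15 and 44.3% ± 6.89 (SD, n = 3). A share of 3p counts is not the share of 5p that a precursor gives, since the 3p products may be degraded or ligated unequally.

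**Figure D4:**
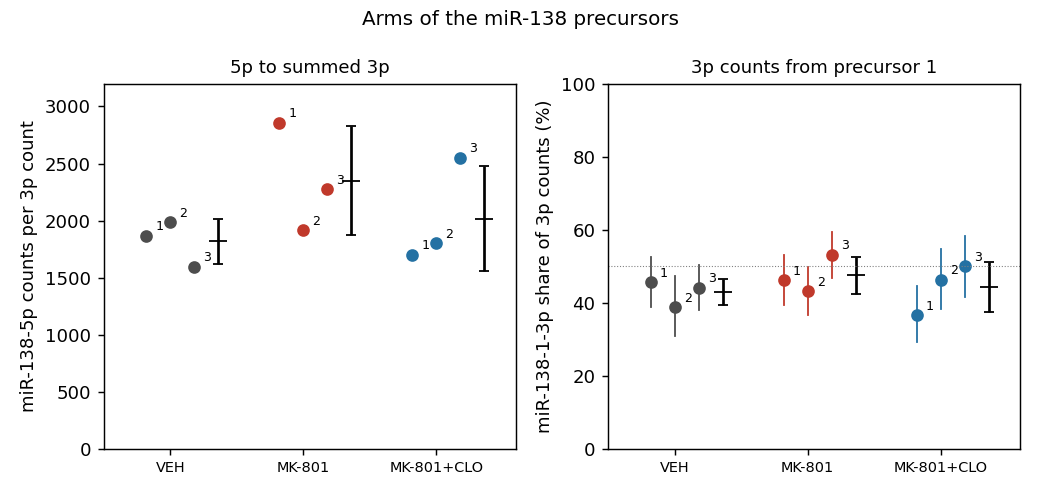
Left, counts of miR-138-5p for each summed 3p count in the 9 libraries (linear axis from 0). Right, the share of 3p counts that are miR-138-1-3p, in percent, with 95% Wilson intervals and a dotted line at 50%. Black bars are the group mean ± SD (n = 3), and ratios range from 1596 in VEH replicate 3 to 2858 in MK-801 replicate 1.

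Across the 9 libraries, log2(CPM + 1) of miR-138-5p had a Pearson r of 0.70 with miR-138-1-3p and of 0.02 with miR-138-2-3p, as a description of libraries that share groups and depth. The corresponding Spearman rho values were 0.63 and -0.25.

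The miRNAs with the pattern most like miR-138-5p were sought among 182 miRNAs with a mean of at least 100 CPM, by Pearson r of log2(CPM + 1) over the 9 libraries, as a description. They were miR-30a-5p (r = 0.94), miR-301a-3p (0.85), miR-99a-5p (0.80), miR-325-3p (0.73), miR-22-5p (0.72) and miR-23b-3p (0.69). The same 6 came first with TMM-scaled values, and 4 of them by Spearman rho. MiR-30a-5p stood at 12274, 12636 and 12226 CPM in VEH replicates 1, 2 and 3. It was measured at 14462, 12767 and 13785 CPM for MK-801, and at 12640, 12990 and 13109 CPM for MK-801+CLO. Its high libraries were also MK-801 replicates 1 and 3, but by far less, with a log2 fold change of 0.17 ± 0.09 (SE) for MK-801 against VEH.

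Without MK-801 replicates 1 and 3, the 2 libraries farthest from the median of miR-138-5p, r was 0.91 for miR-301a-3p and 0.67 for miR-30a-5p. For miR-99a-5p (0.16), miR-325-3p (0.34), miR-22-5p (-0.36) and miR-23b-3p (0.19) the likeness rests on those 2 libraries. The lowest r belonged to miR-125b-1-3p (-0.93), miR-148a-5p (-0.86), miR-1249 (-0.83), miR-872-3p (-0.78), miR-30b-5p (-0.77) and miR-380-3p (-0.76), of which 2 were also among the lowest 6 by rho. Without those libraries these ran from -0.53 for miR-148a-5p to 0.07 for miR-1249. With TMM-scaled values of all 9 libraries, 5 of these 6 stayed among the lowest 6. The r of miR-125b-1-3p was then -0.75, and that of miR-1249, which left the lowest 6, was -0.58. MiR-30b-5p, of the same family as miR-30a-5p, stood at 1501, 1504 and 1858 CPM in the VEH replicates. Its values were 1226, 1434 and 1108 CPM for MK-801 and 1746, 1236 and 1609 CPM for MK-801+CLO, so that MK-801 replicates 1 and 3 were its lowest libraries.

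**Figure D5:**
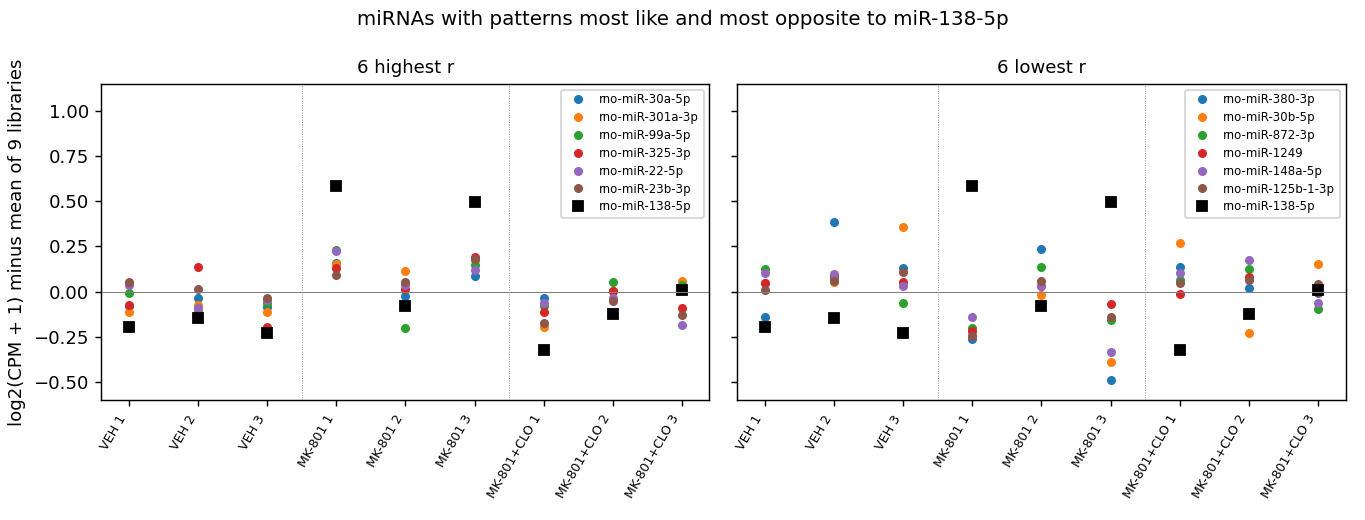
Deviation of log2(CPM + 1) from the mean of the 9 libraries (y axis) for miR-138-5p (black squares) and the 6 miRNAs with the highest r (left) and the lowest r (right), by library (x axis). In MK-801 replicates 1 and 3, where miR-138-5p stood at 37470 and 35318 CPM, the black squares lie well above every other point, and the most similar miRNAs also lie above 0 there.

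Other miRNAs of dendrites and synaptic plasticity lay on both sides of 0 in all comparisons. Of 24 such miRNAs, all listed and tested, 10 lay higher and 14 lower in MK-801 than in VEH, with a median log2 fold change of -0.014, beside 218 higher and 251 lower and a median of -0.018 over all 469. None passed the adjusted threshold. Values (log2 fold change ± SE) were -0.13 ± 0.15 for miR-134-5p, which limits spine growth through Limk1, 0.10 ± 0.16 for miR-132-3p, induced by neuronal activity through CREB, and 0.07 ± 0.13 for the neuronal miR-124-3p. They were 0.24 ± 0.09 for miR-384-5p and -0.16 ± 0.08 for miR-125a-5p.

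For MK-801+CLO against MK-801, where miR-138-5p lay lower, 14 of the 24 lay higher and 10 lower, with a median of 0.10 (0.105 before rounding) beside -0.004 over all miRNAs. Among them were miR-132-3p (0.32 ± 0.16), miR-212-3p (0.32 ± 0.12) and miR-485-5p (0.27 ± 0.12) on the higher side and miR-29b-3p (-0.32 ± 0.16) and miR-218a-5p (-0.24 ± 0.13) on the lower side. For MK-801+CLO against VEH the split was 14 and 10, with a median of 0.064 beside 0.003. Upper-quartile factors, which move the median of all miRNAs to 0.074, -0.12 and -0.02 in these comparisons, turned the first split to 18 higher and 6 lower and the second to 11 higher and 13 lower, and library totals gave 12 and 12 in the last.

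In tissue from a whole hippocampus, fewer cells of a type and less RNA per cell cannot be told apart. Sums of 7 marker lists of cell types or other tissues are set beside miR-138-5p as a description. Among the MK-801 libraries, miR-138-5p was high in replicates 1 and 3 and lowest in replicate 2. The 13 neuron-enriched miRNAs summed to 120026, 111764 and 111272 CPM in MK-801 replicates 1, 2 and 3, and the 5 vascular miRNAs to 24167, 23726 and 22715 CPM. In both, replicates 1 and 3, the libraries with high miR-138-5p, lie on either side of replicate 2. The neuron-enriched sums of replicates 2 and 3 are close together. Most of the neuron-enriched sum was miR-9a-5p, and most of the vascular sum was miR-143-3p. Neuron-enriched miRNAs ranged from 115300 to 120226 CPM in VEH and from 105002 to 128768 CPM in MK-801+CLO, so that the groups overlap.

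In the other 5 lists MK-801 replicates 1 and 3 lay on the same side of replicate 2. In 4 of them the sums were lower and in 1 higher where miR-138-5p was high. Lower in replicates 1 and 3 were the oligodendrocyte list (4 miRNAs, 4342, 7342 and 6681 CPM), the red blood cell list (4 miRNAs, 2710, 3091 and 2784 CPM), the choroid plexus and ependyma list (10 miRNAs, 3499, 4183 and 3573 CPM) and the list of liver, muscle and endocrine tissue (5 listed miRNAs, 135, 259 and 112 CPM). In the oligodendrocyte list, however, replicate 3 lay nearer to replicate 2 than to replicate 1. The 6 leukocyte and microglia miRNAs were slightly higher in replicates 1 and 3, at 830, 804 and 837 CPM. In MK-801, 1 miRNA made up most of each sum. In the order of the lists these were miR-338-3p (mean 3893 CPM), miR-486 (2821 CPM), miR-204-5p (2596 CPM), miR-375-3p (148 CPM) and miR-150-5p (720 CPM). The sums therefore do not show that the members of a list moved together. In VEH these 5 lists ranged, in the same order, from 4371 to 6458, from 3071 to 3563, from 3732 to 10494, from 153 to 257 and from 801 to 957 CPM. With clozapine they ranged from 4314 to 6506, from 2973 to 3268, from 2418 to 3683, from 74.7 to 157 and from 912 to 1131 CPM.

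The 5 vascular miRNAs summed to between 25683 and 30249 CPM in MK-801+CLO, above every MK-801 library (22715 to 24167 CPM) and every VEH library (21841 to 25141 CPM). Most of that sum was miR-143-3p, with a mean of 21311 CPM in MK-801+CLO. By fitted log2 fold change, 4 of the 5 lay higher in MK-801+CLO than in MK-801, and miR-145-3p lay lower (-0.14 ± 0.24, SE). Against VEH 4 again lay higher, and miR-145-5p lay lower (-0.21 ± 0.25, SE). The leukocyte and microglia list was also higher in every MK-801+CLO library than in every MK-801 library, though not than in every VEH library. Most of that sum was miR-150-5p, with means of 720 CPM in MK-801 and 894 CPM in MK-801+CLO. By fitted log2 fold change of MK-801+CLO over MK-801, 4 of the 6 lay higher, miR-150-5p among them (0.35 ± 0.11, SE). The 2 that lay lower were miR-142-3p (-0.26 ± 0.17) and miR-142-5p (-0.12 ± 0.10). In the choroid plexus list miR-200a-3p was at 0 in MK-801 replicates 1 and 3, and no other list had a listed member at 0 in any library. The part of these lists in the level of miR-138-5p was not tested.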

How the data were processed

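The 9 small RNA libraries fall into groups of 3 by title. The authors deposited whole-number counts and values headed TPM, which are CPM: each equals its count over the library total, to within 0.000473%, with no term for length. The tools cutadapt 1.14, Bowtie and DESeq and the build Rnor_6.0 appear in the submitters' processing notes with no role stated. The handling of reads that fit more than 1 miRNA is not stated there. The deposited table also lists each sequence and its length, a column of other values that entered no test. In the table, 21 blank lines were dropped and 1 split name was rejoined.

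Counts were fitted with edgeR 4.0.16 in R 4.3.3 (TMM, filterByExpr, glmQLFit, glmQLFTest, 1 mean per group, all 9 libraries, Benjamini-Hochberg over 469 miRNAs). SE was taken from the log2 fold change and the F statistic (its absolute value over the root of F). The code was tested on simulated counts. All 3 miR-138 products passed the filter. Wilson intervals are from SciPy 1.17.1 and cover counting error only, and PCR copies are not separate molecules. The members and lists were chosen with earlier results of these data known. Named miRNAs were the miR-138 products, list members, the 6 highest and 6 lowest in r with miR-138-5p, and its neighbours in level. MiR-26a, miR-103, let-7f, miR-92b, miR-146b, miR-410, miR-98, miR-541 and miR-133a-5p fall partly outside that rule and were picked once their values had been seen. Sequences are RefSeq's of GRCr8, a build other than Rnor_6.0.

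Alternatives were DESeq2 1.42.0, limma 3.58.1 voom, other scaling factors and filters, removal of the 5 most abundant other miRNAs, a fit blocked on replicate number, fits to the 2 groups compared alone, and fits without each library.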

Additional observations from a re-analysis of the deposited data

How the results depend on the processing

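The log2 fold change of miR-138-5p kept its sign under all 16 alternatives in each comparison. Apart from left-out libraries it ran from 0.54 to 0.69 between MK-801 and VEH, from -0.58 to -0.44 between MK-801+CLO and MK-801, and from 0.05 to 0.13 between MK-801+CLO and VEH. With a library left out it ran from 0.45 to 0.79, from -0.67 to -0.33 and from 0.00 (0.002) to 0.22. MiR-138-1-3p kept its sign under 15 of 15 alternatives in the first and second comparison and 9 of 15 in the last, and miR-138-2-3p under 14, 14 and 13 of 15. No 3p value could be had at a minimum of 10 CPM, which leaves both products out. Counts of miRNAs past an adjusted p of 0.05 were 0 in edgeR and 1, 2 and 11 in DESeq2. With a library left out they ran from 0 to 1, from 0 to 2 and from 0 to 7. The 1 arose when MK-801 replicate 2, the MK-801 library with the lowest miR-138-5p, was left out. It was miR-138-5p itself, which was chosen on this contrast, so nothing is read from that call. The 2, without MK-801+CLO replicate 2, were miR-128-3p and miR-211-5p. No sign was seen that replicate numbers pair the libraries, which does not exclude a pairing. Only 2 of 9 same-number pairs had deviations correlated above 0.1 (range -0.56 to 0.33), and 2 of 9 libraries correlated best with their own number. With the replicate block the miR-138-5p values were 0.56, -0.45 and 0.11, and 0 miRNAs passed. For the 3p products, 52 to 137 counts per library limit the precision.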
